A study of Mus musculus with 37 samples.

Results

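Wfs1 encodes wolframin, a membrane protein of the endoplasmic reticulum that is mutated in Wolfram syndrome. The genes described here are its neighbours on mouse chromosome 5. A list of 39 gene symbols was taken, and every probe set that the array annotation ties to 1 of those symbols alone was a member. Of the 39 genes, 38 had such a probe set and Drd5 had none. They held 79 of the 45101 probe sets of the array. A probe set was tested when its mean reached a log2 signal of 3.6, the 40th percentile of all probe set means, in at least 1 group. This left 60 probe sets of 33 member genes among 23321 tested. Cpz, Ncapg, Otop1, Sh3tc1 and Stk32b had no probe set above that level, so no statement is made on them.

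The samples were 37 temporal lobes of mice, 9 from wild-type and 9 from WFS1 KO animals of the strain labelled C57, and 9 from wild-type and 10 from WFS1 KO animals of the strain labelled 129SV. The design text calls these backgrounds C57B6 and 129S6, and the groups are written C57 WT, C57 KO, 129SV WT and 129SV KO here. The plots shorten 129SV to its digits. No treatment separates the groups. The labels give no sex, age, litter or hybridization day, they do not describe the targeted allele or the embryonic stem cells it was made in, and they give no number of backcrosses. Since they also do not state that the arrays of a group stand for separate animals, p-values speak of the spread among these samples only.

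A knockout made by gene targeting carries, next to the altered gene, the chromosome of the embryonic stem cells in which the targeting was done. Backcrossing exchanges the rest of the genome and leaves a flanking segment of the stem cell strain, whose length depends on the crossovers. Within such a segment, genes of a knockout and its wild-type control can differ by strain alleles as well as by the loss of the target. Sequence differences under a probe can also alter a signal on an oligonucleotide array without a change in transcript level. The members are an unrelated set by function. They include Jakmip1, a neuronal protein that binds microtubules and GABA-B receptors, Crmp1, a mediator of semaphorin signalling in growing axons, Evc and Evc2, partner proteins at the base of the primary cilium that act in hedgehog signalling, and Slit2, a secreted axon guidance cue.

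Position was measured as place in the order of annotated genes in the RefSeq gene table, with Wfs1 at 0 and negative places towards the lower coordinates. Members reached from Cpz at -40 to Kcnip4 at 117. Jakmip1 was the nearest member, at 2 on the higher side, and Ppp2r2c was nearest on the lower side, at -3. The gene order was used only for neighbourhood, because the build behind the array annotation is not known here.

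The 250 bases before an annotated start are printed for Wfs1 and Jakmip1, the targeted gene and the neighbour on which the results turn. They come from RefSeq on GRCm38.p6, a reference made from a C57BL/6J mouse, so they show no 129SV allele. Capitals mark CG, searched as these letters, which read the same on both strands and do not overlap another motif here. The Wfs1 window is chr5:36988983-36989232 on the minus strand. The Jakmip1 windows are chr5:37050607-37050856 and chr5:37084986-37085235 on the plus strand, and both lie inside the Jakmip1 gene model, so they belong to starts downstream of its first base.
Wfs1: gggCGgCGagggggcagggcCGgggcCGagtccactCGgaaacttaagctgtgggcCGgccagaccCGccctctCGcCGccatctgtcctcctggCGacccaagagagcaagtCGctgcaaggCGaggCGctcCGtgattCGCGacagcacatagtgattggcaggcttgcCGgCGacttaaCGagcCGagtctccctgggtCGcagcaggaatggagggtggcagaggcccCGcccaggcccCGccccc
Jakmip1, window 1: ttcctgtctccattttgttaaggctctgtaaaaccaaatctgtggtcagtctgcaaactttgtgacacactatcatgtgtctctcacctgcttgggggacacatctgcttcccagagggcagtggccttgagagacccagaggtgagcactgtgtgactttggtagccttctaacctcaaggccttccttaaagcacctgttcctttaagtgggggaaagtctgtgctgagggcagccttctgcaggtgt
Jakmip1, window 2: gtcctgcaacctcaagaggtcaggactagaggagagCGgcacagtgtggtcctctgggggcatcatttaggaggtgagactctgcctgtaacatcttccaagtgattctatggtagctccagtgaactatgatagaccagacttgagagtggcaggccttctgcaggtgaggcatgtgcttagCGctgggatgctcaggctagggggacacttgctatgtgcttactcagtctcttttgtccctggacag

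The Wfs1 window held 23 CG at a GC content of 69.6%, and 13.3% of all such windows held as many or more. The first Jakmip1 window held 0 CG at a GC content of 50.4%, and the second held 2 at 53.2%. At least 1 CG was found in 92.1% of all windows, and 2 or more in 81.2%. These are descriptions of the reference letters, and no measurement of the study bears on them.

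Array medians lay between 4.30 and 4.36, and the actin controls, whose 3' minus 5' signal grows as RNA degrades, spanned 0.91 to 2.76. The value of 2.76 was in 129SV WT, and the highest in the other groups were 1.66 in C57 WT, 1.94 in C57 KO and 1.66 in 129SV KO. No 2 arrays held the same values, the highest correlation being 0.997. All 8 listed neuron markers were above the 3.6 level, with a mean level per array between 10.00 and 10.41. Of 14 listed striatum markers, a region next to the temporal lobe, 12 were on the array and all 12 were above that level. All 21 striatum probe sets had lower means in C57 KO than in C57 WT, with a median difference of -0.44. All 21 were also lower in 129SV KO than in 129SV WT, with a median of -0.15. Their mean level per array ranged from 7.60 to 8.66 in C57 WT and from 7.30 to 8.29 in C57 KO. In C57, limma called 0 of the 21, while 16 had an unadjusted p under 0.05, against 5.63% of all probe sets. The median C57 difference was -0.14 for oligodendrocyte, 0.05 for astrocyte, 0.01 for microglia, 0.02 for vessel, -0.03 for choroid plexus and 0.12 for pituitary markers, with 0 called by limma and 0 at an unadjusted p under 0.05 in each list.

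The Wfs1 probe set 1448411_at followed the labels. In C57 its lowest, median and highest log2 signals were 9.16, 9.27 and 9.73 in WT, against 2.75, 2.93 and 3.60 in KO. In 129SV they were 9.11, 9.36 and 9.52 in WT, against 2.64, 3.19 and 3.59 in KO. The groups were far apart in both strains. The KO means lay below 3.6, where a signal is not well separated from background, so the size of the fall has no measured value there. The WT means lay 5.72 above that level in C57 and 5.73 above it in 129SV, and the limma adjusted p-values were 6.357e-35 and 3.532e-35. Where on the transcript the probes lie, and which part of the gene was altered, were not given in the labels.

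Setting C57 KO against C57 WT asked which flanking genes differed with the knockout on that background. The neighbour that fell was Jakmip1. Of its 4 tested probe sets, 2 were lower in C57 KO, and they were the only called ones among the 60 member probe sets. One of these, 1430597_at, reached the level for testing only through C57 WT, the group where it is high, so its call is no support, and with it set aside 1 probe set remains. A probe set is called here at a 2-sided limma p under 0.05 after Benjamini-Hochberg adjustment over all 23321. The called members came to 3.33% of the members, against 0.0858% of all probe sets tested, which were 20. Of those 20, 16 lay on the chromosome of Wfs1, 1.06% of the 1503 probe sets tested there. The 16 include the Wfs1 probe set itself and 1430597_at.

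Jakmip1 probe set 1433815_at had lowest, median and highest log2 signals of 5.83, 6.22 and 6.49 in C57 WT. In C57 KO they were 4.08, 4.41 and 4.52. In 129SV WT they were 3.78, 4.37 and 4.60, and in 129SV KO 3.89, 4.32 and 4.70. C57 WT stood apart from the other groups, with a gap of 1.31 between its lowest array and the highest C57 KO array. The other 3 groups overlapped one another. The means were 6.19 ± 0.17 (SD, n = 9) for the C57 wild types and 4.34 ± 0.17 (SD, n = 9) for the C57 knockouts. They were 4.27 ± 0.26 (SD, n = 9) for the 129SV wild types and 4.31 ± 0.25 (SD, n = 10) for the 129SV knockouts.

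The difference of C57 KO from C57 WT for this probe set was -1.85 (SE 0.10, 95% interval -2.05 to -1.65), a signal 3.61-fold lower, with a limma adjusted p of 1.951e-16. It was called with each of the 37 arrays left out in turn, with values from -1.90 to -1.81. In a bulk dissection, a lower signal from fewer cells of a type and one from less RNA per cell cannot be told apart. The 17 probe sets of the neuron markers had a median difference of -0.05 in C57, and 0 of them were called by limma, with 0 at an unadjusted p under 0.05. With the striatum marker level as a covariate the Jakmip1 difference was -1.72 (SE 0.11, limma adjusted p = 4.421e-14).

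Jakmip1 probe set 1430597_at was dimmer. Its lowest, median and highest signals were 3.63, 3.71 and 4.09 in C57 WT, 2.85, 3.06 and 3.40 in C57 KO, 3.04, 3.19 and 3.40 in 129SV WT, and 3.10, 3.25 and 3.51 in 129SV KO. Every C57 WT array lay above every array of the other groups. All arrays outside C57 WT were below 3.6, so the fitted differences of this probe set, -0.71 in C57, have no measured size. Its C57 WT mean lay 0.19 above that level.

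**Figure D1:**
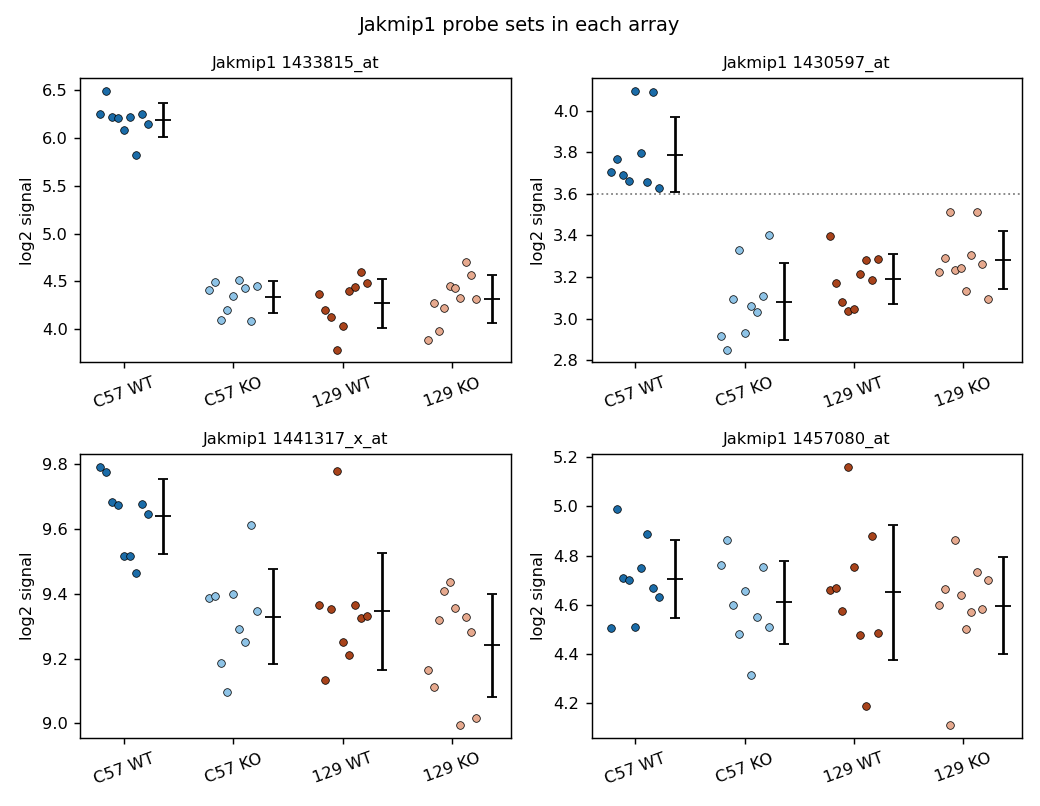
Log2 signal of the 4 Jakmip1 probe sets in each of the 37 arrays, by group; points are arrays, bars are the mean ± SD of the group, and the dotted line is the level of 3.6 used to choose tested probe sets. C57 WT lies above the other 3 groups without overlap in 1433815_at and 1430597_at, and overlaps them in 1441317_x_at and 1457080_at.

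The other Jakmip1 probe sets did not follow this pattern to the same size. The brightest, 1441317_x_at, had lowest, median and highest signals of 9.47, 9.68 and 9.79 in C57 WT, 9.10, 9.35 and 9.61 in C57 KO, 9.13, 9.33 and 9.78 in 129SV WT, and 8.99, 9.30 and 9.44 in 129SV KO. The groups overlapped. Its difference in C57 was -0.31 (SE 0.07, 95% interval -0.46 to -0.16) with a limma adjusted p of 0.107, which missed the threshold. It was called without C57 KO array 10 and without 129SV WT array 73, where the limma adjusted p was 0.0277, and with the actin difference as a covariate (-0.32, limma adjusted p = 0.0119). The name ending in x marks a probe set whose probes can also match other transcripts.

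The fourth, 1457080_at, had lowest, median and highest signals of 4.51, 4.70 and 4.99 in C57 WT and 4.32, 4.60 and 4.86 in C57 KO. Its C57 difference was -0.10 (SE 0.09, 95% interval -0.29 to 0.10, limma adjusted p = 0.999). The 4 probe sets of Jakmip1 therefore gave C57 differences from -1.85 to -0.10. Levels of different probe sets cannot be set against each other, and the positions of their probes on the gene were not analysed here. The mean of the Jakmip1 probe sets had a difference of -0.74 in C57 (limma adjusted p = 2.749e-15), whereas taking the brightest probe set alone gave no call for the gene. That mean includes 1430597_at, tested only through its C57 WT signal and without a measured size. The mean and its p are therefore no separate support for the gene.

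The same comparison in 129SV called none of the 60 member probe sets, against 0.00429% of all tested, which was Wfs1 itself. At an unadjusted p under 0.05 there was 1 member probe set, of Evc, against 2.19% of all probe sets by limma. For Jakmip1 1433815_at the 129SV difference was 0.04 (SE 0.10, 95% interval -0.15 to 0.24). Over the members the differences in 129SV ranged from -0.20 to 0.20. The 95% intervals lay within 0.25 of 0 for 41 member probe sets and within 0.5 for 59.

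Whether the change of C57 KO differed from that of 129SV KO was tested directly as the difference between both effects. It was called for 2 member probe sets, 3.33% of the members, against 0.0257% of all probe sets tested. Both were of Jakmip1, at -1.90 (SE 0.14, limma adjusted p = 9.899e-12) for 1433815_at and a fitted -0.80 for 1430597_at, which again passed the level for testing through C57 WT alone. For this difference the other Jakmip1 probe sets were not called, at -0.20 (SE 0.10) for 1441317_x_at and -0.04 (SE 0.13) for 1457080_at. The interval of this difference lay within 0.5 of 0 for 49 of the 60 member probe sets and within 0.25 for 14, so moderate differences between the strains were not measured finely.

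**Figure D2:**
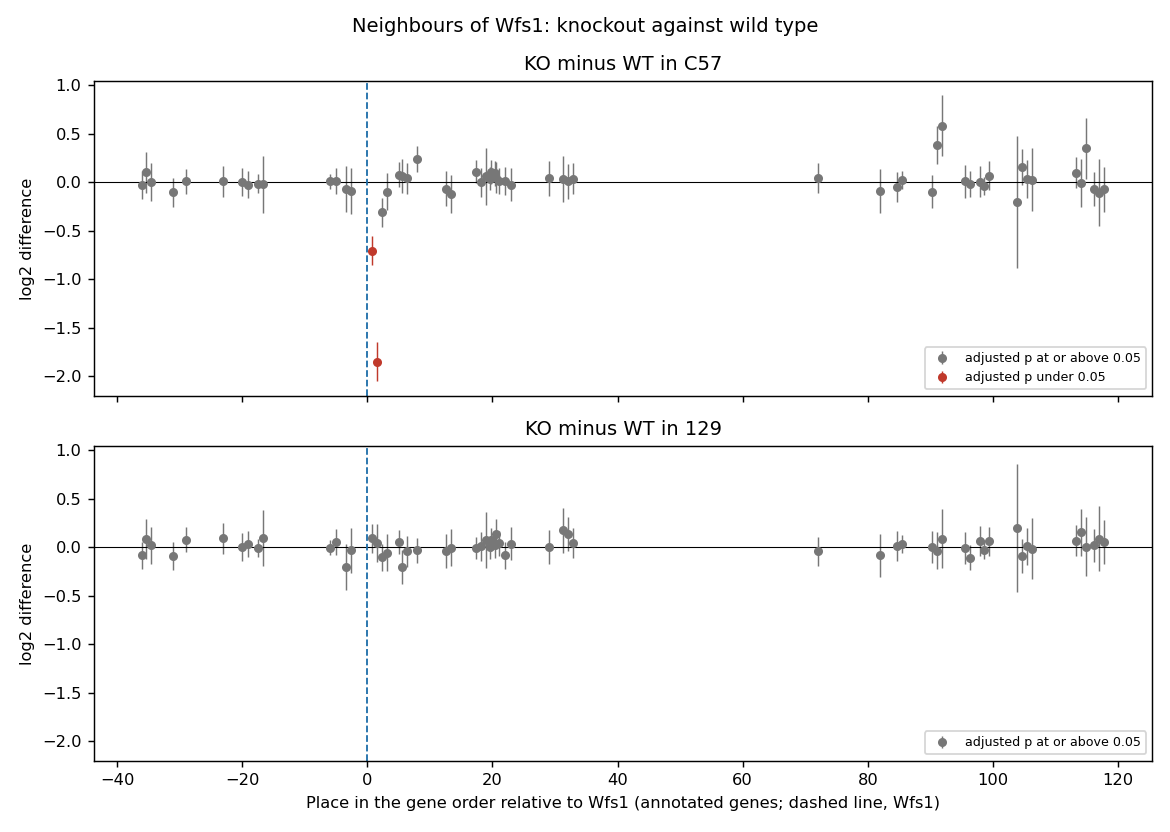
Difference of KO from WT on the log2 scale for the 60 tested member probe sets, in C57 (upper panel) and 129SV (lower panel), against the place of the gene in the gene order relative to Wfs1; probe sets of a gene are drawn side by side and bars are 95% intervals. In C57 the 2 called points, both Jakmip1, lie at -1.85 and -0.71, the second from the probe set tested only through its C57 WT signal, and no point is called in 129SV.

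The wild-type strains were compared for the same genes. Of the 4 Jakmip1 probe sets, 3 were called lower in 129SV WT than in C57 WT, and of the other members 1 probe set of Ldb2 was called higher. Among cell type markers, 20 of 23 oligodendrocyte probe sets were lower in 129SV WT, with a median of -0.19 and 1 called by limma. At an unadjusted p under 0.05 by limma there were 10 of these 23, against 11.4% of all probe sets. For microglia there were 5 of 12 under that p with 0 called. The part of these markers in the result was not tested. The 4 called member probe sets were 6.67% of the members, against 2.02% of all tested and 4.86% of those tested on chromosome 5. At an unadjusted p under 0.05 by limma there were 7 of the 60 member probe sets, against 11.4% of all probe sets. For Jakmip1 1433815_at the difference of 129SV WT from C57 WT was -1.92 (SE 0.10, limma adjusted p = 1.189e-16), with a gap of 1.23 between the groups. The probe set 1430597_at was also called, but through C57 WT alone, as above. For 1441317_x_at it was -0.29 (SE 0.07, limma adjusted p = 0.0214), a call that was lost without 129SV WT array 71, where the difference was -0.27 (limma adjusted p = 0.0537). This comparison and that of KO with WT in C57 share the C57 WT arrays, so their values stand side by side and are not independent.

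The knockouts of both strains, which share no array with the wild types, gave 0 called member probe sets, against 3.01% of all tested. The difference of 129SV KO from C57 KO was -0.02 (SE 0.10, 95% interval -0.22 to 0.17) for Jakmip1 1433815_at, with a limma adjusted p of 0.976. For 1430597_at both groups lay below 3.6, so no difference is given. The differences over the 58 probe sets besides these ranged from -0.16 to 0.17, and 39 of the 60 had a 95% interval within 0.25 of 0. At an unadjusted p under 0.05 by limma there was 1 member probe set, against 12.2% of all probe sets. It was Jakmip1 1430597_at, with both groups below 3.6 as above. For Jakmip1 1433815_at, then, the wild types differed and the interval between the knockouts lay within 0.25 of 0.

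**Figure D3:**
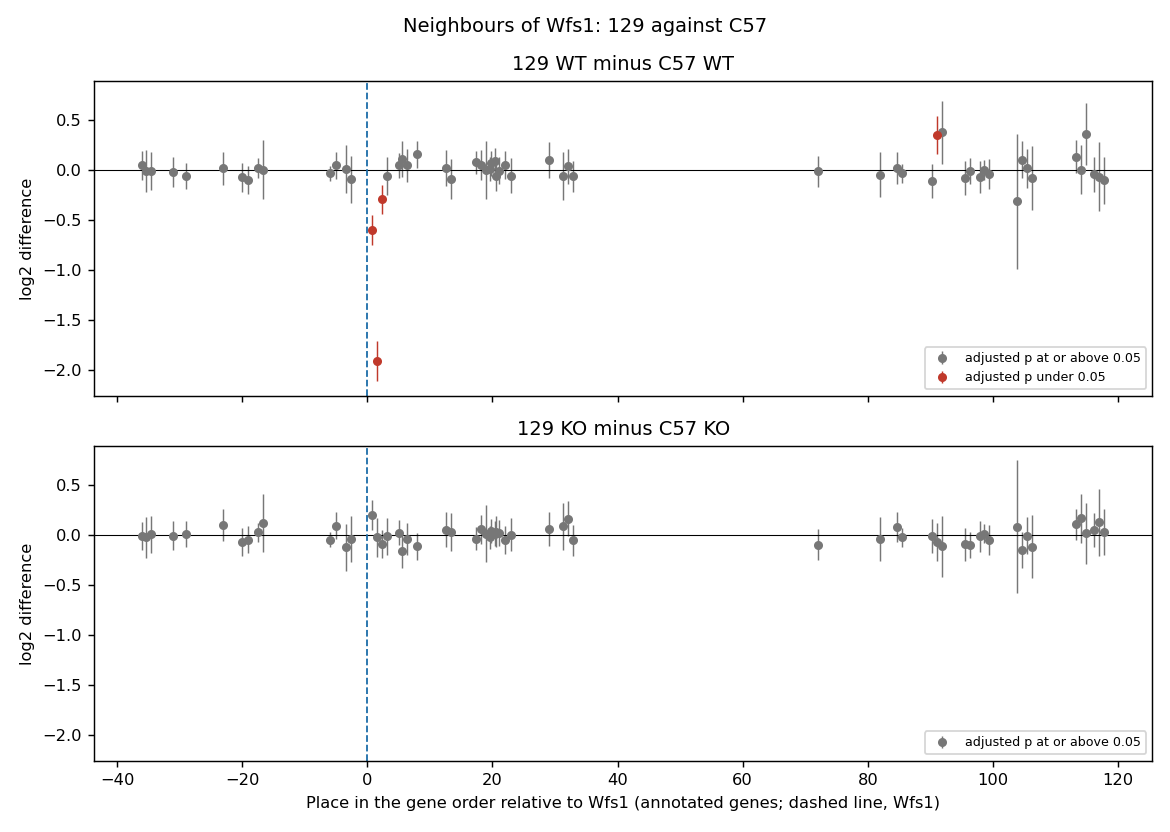
Difference of 129SV from C57 on the log2 scale for the 60 tested member probe sets, between the wild types (upper panel) and between the knockouts (lower panel), against the place of the gene in the gene order; probe sets of a gene are drawn side by side and bars are 95% intervals. Between the wild types 3 Jakmip1 probe sets are lower and 1 Ldb2 probe set is higher, and between the knockouts no member is called. Of the 3, Jakmip1 1430597_at was tested only through its C57 WT signal, so its call is no support. The Ldb2 call held in 27 of 37 runs that left out 1 array each.

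Arrays with lower and higher sample numbers can differ for reasons that the labels do not give, so values were also taken within the lower and within the higher numbers of each group. For Jakmip1 1433815_at, C57 KO was -1.98 from C57 WT among the lower numbers (5 against 4 arrays) and -1.73 among the higher (4 against 5). The difference between the strains' effects was called for 1433815_at in both sets, and for 1430597_at among the lower numbers only.

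The nearest members on the lower side of Wfs1 gave no call. Ppp2r2c is a brain-enriched regulatory subunit of protein phosphatase 2A. Its bright probe set 1438671_at had lowest, median and highest signals of 8.75, 9.02 and 9.30 in C57 WT, 8.63, 8.82 and 9.30 in C57 KO, 8.29, 8.86 and 9.24 in 129SV WT, and 8.57, 8.80 and 9.37 in 129SV KO. The 4 groups overlapped, and the C57 difference was -0.09 (SE 0.12, 95% interval -0.32 to 0.15). A dimmer probe set of the gene, 1438054_x_at, spanned 3.28, 3.63 and 4.03 in C57 WT, 3.27, 3.61 and 3.84 in C57 KO, 3.40, 3.62 and 3.90 in 129SV WT and 3.09, 3.32 and 4.17 in 129SV KO, and it too overlapped in all groups.

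Man2b2, an alpha-mannosidase, had lowest, median and highest signals of 4.11, 4.36 and 4.55 in C57 WT, 4.20, 4.35 and 4.66 in C57 KO, 4.07, 4.41 and 4.61 in 129SV WT, and 4.26, 4.46 and 4.62 in 129SV KO. Mrfap1, a nuclear protein that binds MORF4-family chromatin proteins, had 10.82, 10.92 and 10.98 in C57 WT, 10.85, 10.93 and 11.01 in C57 KO, 10.81, 10.89 and 10.95 in 129SV WT, and 10.69, 10.87 and 11.03 in 129SV KO. Both overlapped in all groups. The C57 differences of Ppp2r2c, Man2b2 and Mrfap1 ran from -0.09 to 0.01 over 4 probe sets, with 95% intervals from -0.32 to 0.17.

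On the higher side, the next measured members beyond Jakmip1 were Crmp1 and Evc, at 5 and 6. Crmp1 had lowest, median and highest signals of 9.02, 9.19 and 9.27 in C57 WT, 9.07, 9.23 and 9.43 in C57 KO, 9.10, 9.23 and 9.31 in 129SV WT, and 8.77, 9.29 and 9.57 in 129SV KO. Its C57 difference was 0.08 (SE 0.06, 95% interval -0.05 to 0.21). The groups of Crmp1 overlapped, and its interval allows a rise of up to 0.21 in C57.

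Evc and Evc2, partner subunits at the ciliary base, were measured by 3 probe sets. Evc 1448876_at had lowest, median and highest signals of 4.28, 4.62 and 4.82 in C57 WT, 4.22, 4.72 and 4.86 in C57 KO, 4.48, 4.64 and 4.98 in 129SV WT, and 3.996, 4.55 and 4.71 in 129SV KO. Evc 1451697_a_at had 3.92, 4.11 and 4.35 in C57 WT, 3.78, 4.18 and 4.33 in C57 KO, 3.91, 4.14 and 4.47 in 129SV WT, and 3.78, 4.10 and 4.32 in 129SV KO. No group stood apart. The 129SV difference of 1448876_at was -0.20 (SE 0.09, limma adjusted p = 0.9995).

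Evc2 1429447_at had 5.66, 5.82 and 5.95 in C57 WT, 5.89, 6.04 and 6.30 in C57 KO, 5.77, 6.02 and 6.09 in 129SV WT, and 5.68, 5.95 and 6.24 in 129SV KO. The C57 groups overlapped by a few arrays. Its difference was 0.24 (SE 0.07, 95% interval 0.10 to 0.38) in C57, with a limma adjusted p of 0.373, and -0.03 (SE 0.07) in 129SV. Cc2d2a, a protein of the ciliary transition zone, was at 0.04 in C57. Of 26 probe sets of 17 other cilium and hedgehog genes, 0 were called by limma in C57, with a median of 0.01. At an unadjusted p under 0.05 by limma there were 4 of the 26, against 5.63% of all probe sets tested.

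Among the further neuronal members, none was called in C57. Slit2 1458140_at had lowest, median and highest signals of 5.30, 5.94 and 6.48 in C57 WT, 5.37, 6.35 and 6.71 in C57 KO, 5.69, 6.34 and 6.58 in 129SV WT, and 5.88, 6.30 and 6.68 in 129SV KO. All groups overlapped. Its C57 difference was 0.35 (SE 0.15, 95% interval 0.04 to 0.66, limma adjusted p = 0.821). The other Slit2 probe sets were at 0.10 and -0.01.

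Sorcs2, a sorting receptor of the VPS10 family, was at 0.01 in C57 (SE 0.06, 95% interval -0.12 to 0.14). Nsg1, an endosomal protein of neurons, was at 0.04 and 0.09 in its 2 probe sets. Kcnip4, a subunit of A-type potassium channels and the most distant member, was at -0.11, -0.07 and -0.07 in its 3. None was called. The partners of these genes gave 0 calls in C57 by limma as well, with medians of 0.00 over 28 probe sets of SLIT, ROBO and CRMP guidance genes, 0.00 over 20 of VPS10 receptors and endosomal sorting, and -0.05 over 22 of dopamine receptors and potassium channel subunits. At an unadjusted p under 0.05 by limma these lists had 6 of 28, 0 of 20 and 5 of 22 probe sets, against 5.63% of all probe sets tested. The guidance list and the dopamine and potassium channel list thus held a larger share than all probe sets, and the reason was not tested. The latter list shares Drd1 and Drd2 with the striatum markers above, so it is not separate from them.

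The transcription and chromatin members held the other called neighbour, Ldb2, a cofactor that bridges LIM-domain transcription factors. Ldb2 lay at 91 in the gene order. Its probe set 1439557_s_at had lowest, median and highest signals of 6.76, 7.36 and 7.45 in C57 WT, 7.33, 7.67 and 8.06 in C57 KO, 7.50, 7.62 and 7.93 in 129SV WT, and 7.26, 7.67 and 7.88 in 129SV KO. C57 WT was the lowest group. Its highest array lay 0.05 below the lowest 129SV WT array, and the C57 WT and C57 KO arrays overlapped.

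The difference of 129SV WT from C57 WT was 0.35 (SE 0.10, 95% interval 0.16 to 0.54) for this Ldb2 probe set, with a limma adjusted p of 0.0413. It was called in 27 of 37 runs that left out 1 array each, and it was 0.28 (limma adjusted p = 0.104) without C57 WT array 42. The call was lost without any 1 of C57 WT arrays 25, 26, 37, 40 and 42 or of 129SV WT arrays 70, 71, 72, 74 and 78, with differences from 0.28 to 0.36, and without the filter on low values (limma adjusted p = 0.0512). The C57 knockout difference was 0.39 (SE 0.10, limma adjusted p = 0.188), which missed the threshold, and 0.24 (SE 0.10, limma adjusted p = 0.616) with the striatum marker level as a covariate. Other Ldb2 probe sets were at 0.58 (SE 0.16, limma adjusted p = 0.300) for 1456786_at and -0.10 (SE 0.08) for 1421101_a_at in C57, so the probe sets of the gene disagreed in sign.

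**Figure D4:**
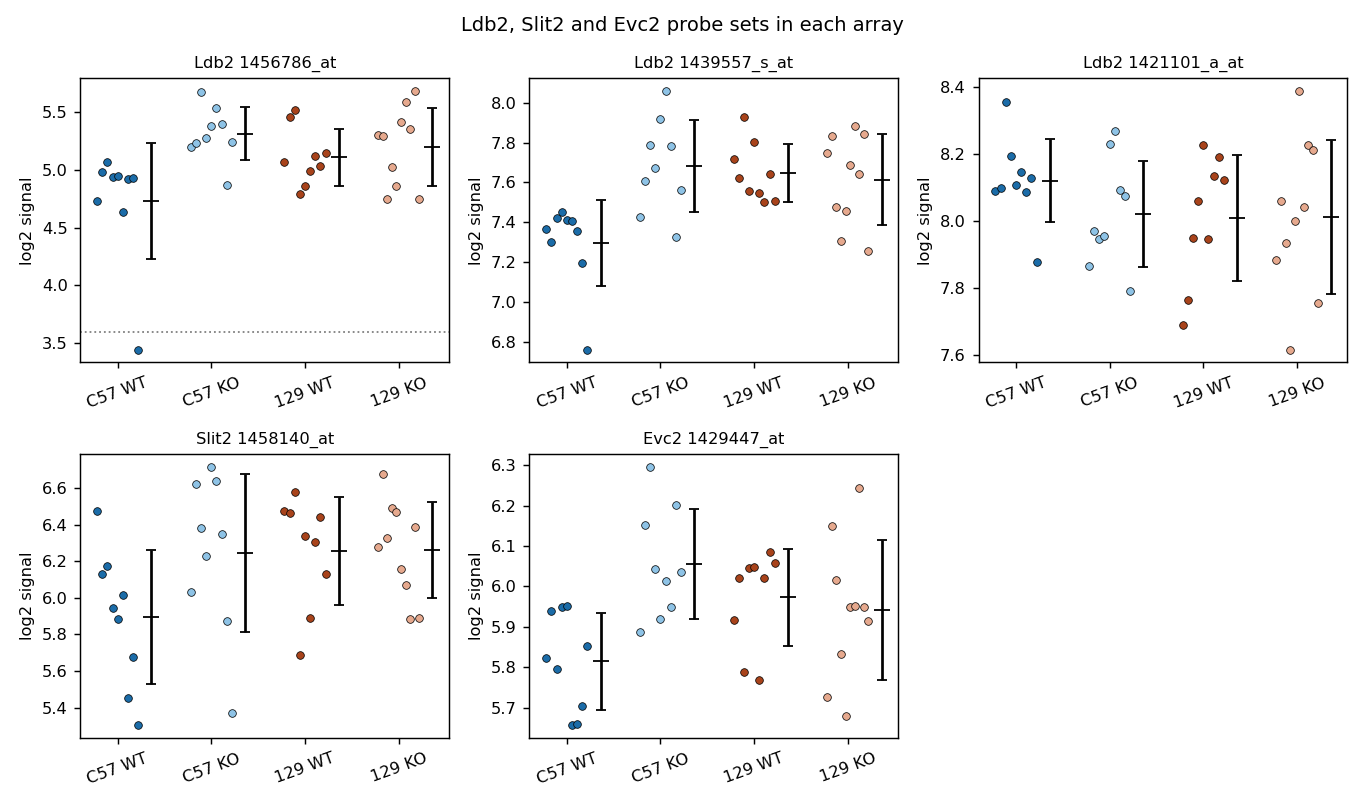
Log2 signal of 3 Ldb2 probe sets, 1 Slit2 probe set and 1 Evc2 probe set in each of the 37 arrays, by group; points are arrays and bars are the mean ± SD of the group, and the dotted line, where it falls in range, is the level of 3.6 used to choose tested probe sets. C57 WT array 42 is the lowest point of Ldb2 1439557_s_at at 6.76 and of 1456786_at at 3.44, and of these 5 probe sets 1439557_s_at alone is called, between the wild types. That call held in 27 of 37 runs that left out 1 array each.

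The remaining transcription members gave no call. Msx1, a homeobox factor, was at -0.07 and -0.12 in C57. Lcorl 1439272_at had the widest interval of any member, from -0.88 to 0.48 around a C57 difference of -0.20. Tada2b of the SAGA complex, Med28 of Mediator, Zbtb49 and Lyar lay with these and with Ldb2 among 14 probe sets of 7 genes, whose C57 differences ran from -0.20 to 0.58.

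Members of membrane traffic and the cytoskeleton gave no call. Stx18, a SNARE protein of the endoplasmic reticulum, Tbc1d14, a regulator of autophagy, Wdr1, which helps cofilin take actin filaments apart, and Afap1, an actin filament binding protein, held 11 probe sets. Their C57 differences ran from -0.10 in Afap1 to 0.11 in Stx18, and those in 129SV from -0.09 to 0.18. Between the wild types they ran from -0.07 to 0.08. This held in all 5 comparisons.

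The enzymes and transporters were likewise without a call. They were Grpel1, a mitochondrial import co-chaperone, Acox3, a peroxisomal acyl-CoA oxidase, Qdpr, which regenerates tetrahydrobiopterin, Lap3, a leucine aminopeptidase, Htra3, a serine protease, Psapl1, a prosaposin-like protein, and Slc2a9, a urate transporter. Their 9 probe sets ran from -0.02 in Acox3 to 0.10 in Htra3 in C57 and from -0.11 in Qdpr to 0.09 in Psapl1 in 129SV. The membrane proteins Prom1, Tapt1 and Tmem128 ran from -0.09 to 0.02 in C57 over 4 probe sets.

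Across all 60 member probe sets, the median difference was 0.01 in C57 and 0.01 in 129SV, against 0.01 and 0.00 over all probe sets tested. Between the wild types it was -0.01, against 0.01. In C57, 35 were higher and 25 lower, and 35 had a 95% interval within 0.25 of 0 and 54 within 0.5. C57 WT had the highest of the 4 group means in 16 of them and the lowest in 18. At an unadjusted p under 0.05 by limma there were 7 of the 60 member probe sets in C57, a larger share than the 5.63% of all probe sets. The 7 include Jakmip1 1433815_at, 1441317_x_at and 1430597_at. The last was tested only through its C57 WT signal, so its p is no support. Whether the share stays larger without Jakmip1 was not tested.

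The calls along chromosome 5 did not fall off evenly with distance. Within 25 genes of Wfs1 there were 33 tested probe sets, and the 2 called in C57 were those of Jakmip1. Of these 2, 1430597_at was tested only through its C57 WT signal, so its call is no support. From 26 to 50 genes away, 0 of 15 were called in C57, and from 51 to 100, 0 of 74. Beyond 100 and up to 200 genes away, 7 of 131 were called, 5.34%, and none of these was a member. Beyond 200 genes, 6 of 1249 were called, 0.48%. The 10 probe sets of genes that are no members but lie within 50 genes of Wfs1 gave 0 calls by limma in each of the 5 comparisons.

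Between the wild types the same bins held 3 of 33, 0 of 15, 2 of 74, 10 of 131 and 58 of 1249 called probe sets. Between the knockouts the first 4 bins held 0 calls among 253 probe sets, and the outermost held 32. Up to 200 genes from Wfs1, 15 of 253 probe sets were called between the wild types, 5.93%, against 2.02% of all tested. The share was 4.86% over the 1503 probe sets tested on chromosome 5 and 4.64% beyond 200 genes, so 5.93% was near that of the chromosome. Of the same 253, 0 were called between the knockouts, against 3.01% of all tested and 2.13% of those on chromosome 5. All 32 calls of that comparison on the chromosome were further away. The 15 include Jakmip1 1430597_at, tested only through its C57 WT signal, so its call is no support. They also include Ldb2 1439557_s_at, called in 27 of 37 runs that left out 1 array each. The share of calls was not tested between the comparison of wild types and that of knockouts.

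**Figure D5:**
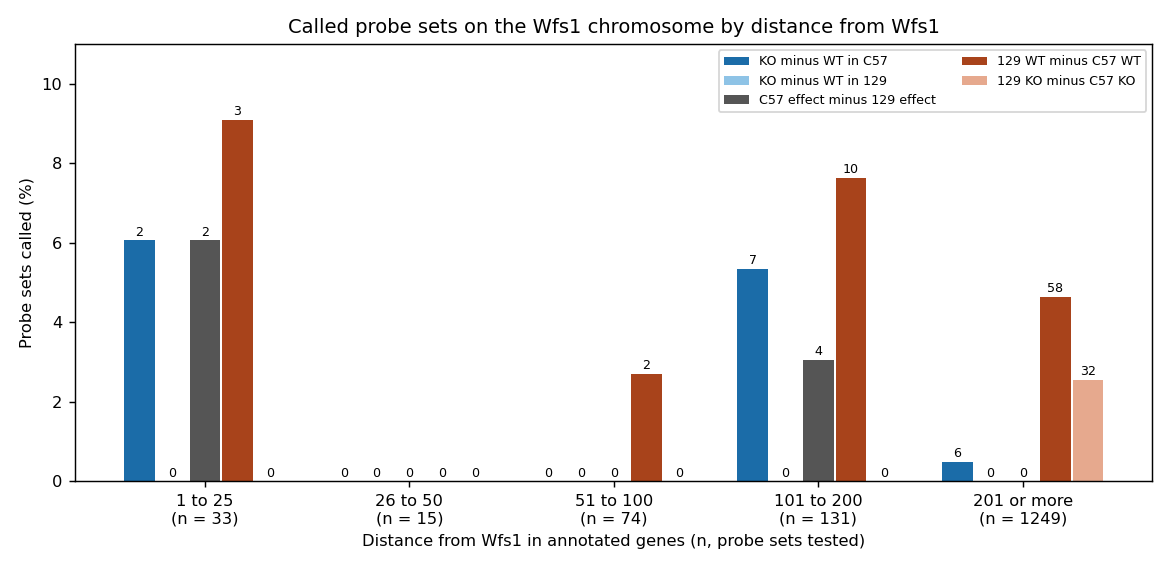
Percent of tested probe sets on chromosome 5 that were called in each comparison, by distance from Wfs1 in annotated genes. In C57 KO against WT the bars stand at 6.06% within 25 genes, 0% from 26 to 100, 5.34% from there to 200 and 0.48% beyond. The 6.06% is 2 Jakmip1 probe sets of 33, of which 1430597_at was tested only through its C57 WT signal. Between the knockouts only the outermost bin has calls.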

How the data were processed

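Total RNA of 37 mouse temporal lobes was measured on Affymetrix arrays. The deposited values were log2 probe set signals that the authors had already normalized. The submitters' processing notes name MAS5 and GCRMA, with neither role nor version. Values ran from 1.34 to 13.76 and were used as deposited, without scaling or pseudocount. Of 45101 probe sets, those annotated to a single symbol, 34945, were used. Another 932 carried several symbols, 9160 carried none and 64 were controls. The number of arrays limits the precision, since arrays give no read depth.

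Group means were fitted over all arrays in R 4.3.3 with limma 3.58.1, to the 23321 probe sets (13078 genes) whose mean reached the 40th percentile of probe set means in a group. P-values were adjusted by Benjamini-Hochberg over all of them. Sample numbers were not shared between groups, so no arrays were paired. Per-array values were given for called members, for the 3 nearest measured members on each side of Wfs1 and for Wfs1. Values for Evc2 and Slit2 1458140_at were added after they had been seen. The members, the lists and the tests were chosen with earlier results of these data known. The fit was tested on simulated data. Gene order came from the RefSeq gene table. Python 3.11.15, pandas 2.3.3, NumPy 2.4.6 and matplotlib 3.10.9 made summaries and plots.

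Alternatives were no filter, a 60th percentile filter, the brightest probe set or the mean per gene, quantile normalization, median centring, only the groups compared, array weights, eBayes with a robust trend, sample number set as a block, the actin difference as a covariate and each array left out. The striatum marker level as a covariate and each sample number set alone were chosen after seeing the data. Probe sequences and their positions were not used here.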

Additional observations from a re-analysis of the deposited data

Results flagged for a closer look

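In 2 Jakmip1 probe sets the difference of KO from WT was called as unlike between C57 and 129SV in a direct test. It was -1.90 for 1433815_at and -0.80 for 1430597_at on the log2 scale. The probe set 1430597_at reached the level for testing only through C57 WT, and its other groups lay below 3.6, so its value has no measured size. The other Jakmip1 probe sets were not called, at -0.20 for 1441317_x_at, the brightest, and -0.04 for 1457080_at. Whether the loss of Wfs1 or flanking strain alleles gave the values was not tested.

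Single arrays lay far from the rest of their group in 6 of 52 examined combinations of a probe set and a group. Examined were the called members, the 3 nearest measured members on each side of Wfs1, and Wfs1. Evc2, Slit2 and the uncalled Ldb2 probe sets were not examined. Chance flags about 1 in 20 groups. Crmp1 was at 8.77 in 129SV KO array 59, with the nearest array at 9.23. Man2b2 was at 4.07 in 129SV WT array 74, with the nearest at 4.34. Jakmip1 1441317_x_at was at 9.78 in 129SV WT array 73, with the nearest at 9.36, and Jakmip1 1457080_at was at 4.11 in 129SV KO array 52, with the nearest at 4.50. C57 WT array 42 stood out in 2 of the examined probe sets, with Ldb2 1439557_s_at at 6.76 against a nearest value of 7.20, and Wfs1 1448411_at at 9.73 against 9.38. Outside the examined combinations, 129SV WT array 73 was also the lowest or the highest of its group in further member probe sets. It was the lowest in Wdr1 1423054_at at 5.46 and the highest in Htra3 1419292_at at 5.68. C57 WT array 42 was the lowest of its group in Ldb2 1456786_at at 3.44. No explanation of these arrays was tested.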

How the results depend on the processing

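The count of called members in C57, 2, was 1 with the 60th percentile filter, 0 with the brightest probe set per gene, 1 with the mean per gene and 4 with array weights, which added Jakmip1 1441317_x_at and Ldb2 1439557_s_at. It was 3 with the actin covariate, which added the former. The count for the difference between the strains' effects, 2, was 1, 0 and 1 under the first 3 of these and 1 with the higher sample numbers alone. The brightest Jakmip1 probe set is 1441317_x_at, so that setting does not include 1433815_at. The mean for Jakmip1 includes 1430597_at, tested only through its C57 WT signal, so the calls of that setting are no separate support. Between the wild types the count of 4 was 1 with the brightest probe set or the mean, and 2 with the lower or the higher sample numbers alone. It was 3 without a filter, which lost Ldb2 1439557_s_at, and 3 with the 60th percentile filter. Leaving out each array in turn gave 2 to 3 called members in C57, 0 in 129SV, 2 for the difference, 2 to 4 between the wild types and 0 between the knockouts. In 129SV and between the knockouts the count was 0 under every alternative run.

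Over all probe sets, the 20 calls in C57 were 13 with the 60th percentile filter, 10 with the mean per gene, 7 with only the groups compared, 9 with the striatum covariate, 11 with the lower and 8 with the higher sample numbers alone, and 11 to 23 with 1 array left out, being 11 without C57 KO array 3, 12 without C57 WT array 42 and 13 without C57 WT array 25. The 472 between the wild types were 1176 with array weights, 269 and 272 with the brightest and the mean, 113 with the lower numbers and 220 with the higher. The 702 between the knockouts were 400 with the brightest, 399 with the mean, 465 with only the groups compared, 425 with the lower and 55 with the higher numbers. The 6 for the difference were 4, 2 and 3 under the filter, the brightest and the mean, 3 and 1 in the number sets, and 5 to 9 with 1 array left out. The cause of these moves was not tested, except that the brightest, the mean and the number sets test fewer probe sets or arrays.

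No paired analysis was possible because the groups share no sample number. Signals below 3.6 limit what can be said of Jakmip1 1430597_at outside C57 WT and of the 5 members left out.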
